A study of Mus musculus with 8 samples.

Results

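Liver expression of 10 fetal and imprinted genes was examined in mice with diet-induced steatohepatitis. The 10 genes were taken by symbol from the 55335 rows of the deposited table, and all 10 were found: the imprinted genes H19, Igf2, Cdkn1c, Dlk1, Meg3 and Peg3, the oncofetal liver markers Afp and Gpc3, and the surface antigens Cd24a and Ly6d. The 4 libraries of group RIC_hEV came from mice injected intravenously with extracellular vesicles from the blood of human volunteers after remote limb ischemic conditioning, in which blood flow to a limb is briefly interrupted. The 4 libraries of group ctr_hEV came from mice given vesicles of sham-treated volunteers. All mice were labelled wild type and were fed CDAHFD, a choline-deficient diet with defined amino acids and high fat that makes the liver fatty and inflamed. The labels used here state no strain, age, vesicle dose or time of harvest. No mice without vesicles or on a normal diet were analysed here, so the values do not show the level of a healthy liver.

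The fetal liver makes blood and serum proteins under a gene program that is largely shut down after birth. Afp, H19 and Gpc3 belong to it, and their return in injured, regenerating or malignant liver is why they are called oncofetal. Imprinted genes are read from only the maternal or only the paternal copy; many act on growth before birth, with H19 and Cdkn1c maternal and Igf2, Dlk1 and Peg3 paternal.

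The genes were chosen by name with their measured FPKM in RIC_hEV against ctr_hEV already known. Differences of these members between both groups are therefore given as a description, and the test over all genes is quoted only to say where a member stood in it. Levels are in FPKM, fragment numbers scaled to transcript length and library size, which sets genes of different length on 1 scale. A gene was tested if its mean was at least 1 FPKM over all 8 libraries. H19, Cdkn1c, Afp, Cd24a and Ly6d met this, H19 and Afp only through their ctr_hEV values; Igf2, Dlk1, Meg3, Peg3 and Gpc3 did not. A log2 change is that of log2(FPKM + 1), RIC_hEV over ctr_hEV, relative to the median tested gene, which lay at -0.11.

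Libraries of the control group were uneven. The first principal component of the tested genes held 44.4% of their variance, with ctr_hEV 1 at -36.1, ctr_hEV 3 at -23.3 and ctr_hEV 2 at -2.36, whereas ctr_hEV 4 (16.3) lay among the RIC_hEV libraries (4.75 to 16.3). Total FPKM was 409831 to 430326 in RIC_hEV and 389616 to 424218 in ctr_hEV. Defining hepatocyte genes were abundant in every library, with albumin (Alb) at 19618 to 24977 FPKM in RIC_hEV and 16909 to 28051 FPKM in ctr_hEV. Over all genes, 4 of 11274 passed (0.0355%; limma, Benjamini-Hochberg adjusted p under 0.05), and no member was among them (lowest adjusted p of a member 0.332, for H19). At an unadjusted p under 0.05 stood 3 members (H19, Cd24a and Ly6d) and 14.0% of tested genes; since this contrast chose the members, nothing is read from these counts.

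H19 is the maternally read, non-coding RNA of the H19 and Igf2 locus, abundant in fetal liver. It lies on chromosome 7, 142575529 to 142578143, minus strand (GENCODE M21, GRCm38, the build called mm10), 72.6 kb from Igf2. An exon of H19 holds the hairpin of the microRNA miR-675, through which H19 is known to limit placental growth in mice. The hairpin is shown because it is the part of H19 with a small RNA product. In the hairpin (chr7:142577064-142577147, minus strand, RefSeq, GRCm38.p6) capitals mark both mature strands; in the mature strands they mark the seed, bases 2 to 8.
Mir675 hairpin: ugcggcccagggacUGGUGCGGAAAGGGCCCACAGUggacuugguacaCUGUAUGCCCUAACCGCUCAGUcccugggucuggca
mmu-miR-675-5p: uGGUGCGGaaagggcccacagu
mmu-miR-675-3p: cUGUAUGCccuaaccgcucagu
The seeds of both strands differ from each other, and neither is shared with another mature mouse microRNA of the RefSeq table used. The hairpin gene Mir675 was itself listed, at 0.0537 to 0.113 FPKM in RIC_hEV and 0.0892 to 0.134 FPKM in ctr_hEV. Of the 31-base stretches of H19, 5.27% also occur in other annotated genes, Mir675 among them. How fragments over both genes were assigned is not stated. Mature microRNA was not measured, so the values below are of the long transcript.

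H19 had 0.912, 0.990, 0.635 and 0.388 FPKM in RIC_hEV 1 to 4, against 20.8, 5.02, 23.1 and 1.29 FPKM in ctr_hEV 1 to 4. Every RIC_hEV library lay below every ctr_hEV library, and the ctr_hEV libraries spread widely, with replicates 1 and 3 high and replicate 4 close to RIC_hEV. Of the 11274 tested genes, 4.56% were lower in RIC_hEV without overlap of the groups. H19 means were 0.731 ± 0.275 FPKM in RIC_hEV and 12.6 ± 11.0 FPKM in ctr_hEV (SD, n = 4 each), a ratio of 0.0582. The relative log2 change was -2.32 (SE 0.63), and H19 did not pass over all genes. It was -1.09 with ctr_hEV 1 and ctr_hEV 3 left out, a pair known from an earlier look at these data to stand apart. With ctr_hEV 4, the control nearest to RIC_hEV in H19, left out it was -2.95. H19 was then 1 of 175 genes that passed among 11322 tested (limma adjusted p = 0.0173, with 0.0173 to 0.823 over all alternatives). Since this contrast chose H19, nothing is read from that p-value. The values rest on an estimated 18.4 to 57.2 fragments per library in RIC_hEV and 79.9 to 1415 in ctr_hEV.

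**Figure D1:**
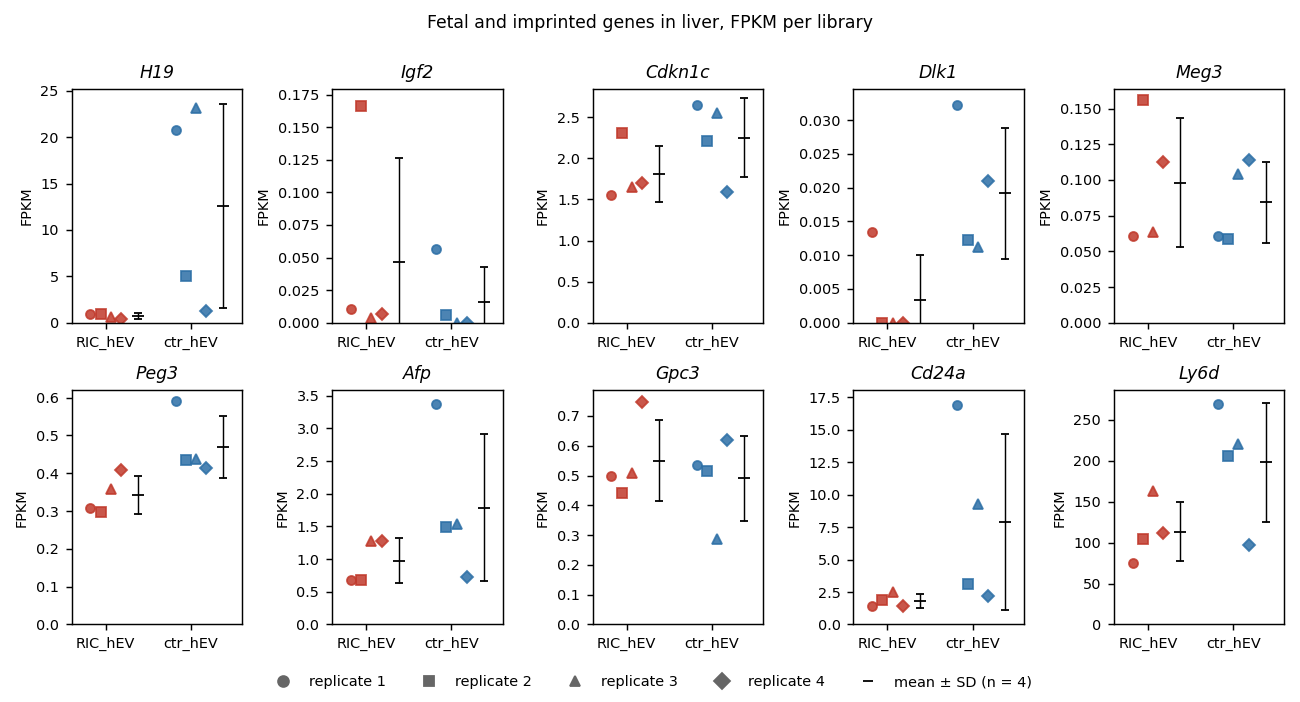
FPKM of each of the 10 genes in each library, RIC_hEV (red) left of ctr_hEV (blue), with mean ± SD (n = 4) at the right of each group; each panel has its own linear axis from 0, at which SD bars that would go lower are cut. H19 lies below 1 FPKM in all 4 RIC_hEV libraries and between 1.29 and 23.1 FPKM in ctr_hEV, while Igf2, Dlk1 and Meg3 stay at or below 0.166 FPKM.

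Igf2, the fetal growth factor that shares its locus and enhancers with H19, was near the limit of detection. It had 0.0108, 0.166, 0.00384 and 0.00657 FPKM in RIC_hEV 1 to 4, against 0.0566, 0.00607, 0 and 0 FPKM in ctr_hEV 1 to 4. The highest value of each group stood far from the rest of its group, and the groups overlapped. These levels correspond to an estimated 0.627 to 19.1 fragments per library in RIC_hEV and 0 to 8.95 in ctr_hEV. Of the 31-base stretches of Igf2, 63.1% also occur in Gm49394, Igf2os or another annotated gene, so even these levels are uncertain. The high H19 of ctr_hEV 1 and ctr_hEV 3 thus stood beside 0.0566 and 0 FPKM of Igf2, and Igf2os, which overlaps Igf2 on the other strand, was listed at 0 in all 8 libraries.

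Cdkn1c encodes p57, an inhibitor of cyclin-dependent kinases, and lies 791.5 kb from Igf2 on chromosome 7 (143458339 to 143461050, minus strand) in the neighbouring imprinted cluster. It had 1.55, 2.31, 1.65 and 1.70 FPKM in RIC_hEV 1 to 4, against 2.65, 2.22, 2.55 and 1.59 FPKM in ctr_hEV 1 to 4. The groups overlapped, since RIC_hEV 2 lay with the higher and ctr_hEV 4 with the lower values. Its relative log2 change was -0.10 (SE 0.14). Of its 31-base stretches 27.2% also occur in other annotated genes, Gm44732 on the other strand among them, and no strand setting is stated for the deposited values.

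Dlk1 and Meg3 are the paternal and maternal genes of the imprinted cluster on chromosome 12, 77.7 kb apart. Dlk1, a membrane protein of fetal hepatoblasts related to Notch ligands, had 0.0134, 0, 0 and 0 FPKM in RIC_hEV 1 to 4, against 0.0322, 0.0123, 0.0112 and 0.0209 FPKM in ctr_hEV 1 to 4. It rests on at most 1.94 estimated fragments per library in RIC_hEV and on 1.50 to 5.04 in ctr_hEV, so that a difference was not detectable at this depth. The non-coding RNA Meg3 had 0.0608, 0.156, 0.0635 and 0.113 FPKM in RIC_hEV 1 to 4, against 0.0607, 0.0586, 0.104 and 0.114 FPKM in ctr_hEV 1 to 4. Both groups covered nearly the same range. The other genes of the cluster named here were as low: Rian was at 0.0196 to 0.0881 FPKM in RIC_hEV and 0.0253 to 0.0402 FPKM in ctr_hEV, Mirg at 0.00852 to 0.0407 and 0.0109 to 0.0174 FPKM, Dio3 at 0.0245 to 0.270 and 0 to 0.194 FPKM, and Rtl1 at 0 throughout.

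Peg3, a paternally read zinc finger gene on chromosome 7 (6703892 to 6730431, minus strand), had 0.308, 0.298, 0.357 and 0.408 FPKM in RIC_hEV 1 to 4, against 0.592, 0.434, 0.437 and 0.414 FPKM in ctr_hEV 1 to 4. The groups did not overlap, but the highest RIC_hEV and the lowest ctr_hEV library nearly met. Among 13591 genes below the filter with a mean of at least 0.01 FPKM, 3.34% were lower in RIC_hEV without overlap. Its log2 difference as computed, -0.13, was close to that of the median tested gene. At this level the added 1 FPKM shrinks any change. With 0.1 and 0.01 FPKM added instead, the relative log2 change of Peg3 was -0.22 and -0.30.

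Afp, alpha-fetoprotein, is the main serum protein of the fetus and a relative of albumin. It lies on chromosome 5 (90490737 to 90508907, plus strand), 14.1 kb downstream of Alb. It had 0.686, 0.682, 1.27 and 1.27 FPKM in RIC_hEV 1 to 4, against 3.38, 1.49, 1.54 and 0.734 FPKM in ctr_hEV 1 to 4. The highest value was in ctr_hEV 1, whereas ctr_hEV 4 fell between the lower and the higher pair of RIC_hEV libraries, so the groups overlapped. Afp means were 0.977 ± 0.339 FPKM in RIC_hEV and 1.79 ± 1.12 FPKM in ctr_hEV (SD, n = 4 each). The relative log2 change was -0.32 (SE 0.24), -0.12 without ctr_hEV 1, and -0.06 with ctr_hEV 1 and ctr_hEV 3 left out.

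The neighbour Alb averaged 22810 ± 2431 FPKM in RIC_hEV and 22984 ± 4608 FPKM in ctr_hEV, against 0.977 and 1.79 FPKM of Afp. The start regions of both genes are shown because these neighbours of 1 family differ this far in level. The windows are RefSeq sequences (GRCm38.p6, plus strand), from 250 bases before to 50 after the annotated start, chr5:90490464-90490763 for Afp and chr5:90460620-90460919 for Alb. Capitals mark GTTAAT, the core motif of the hepatocyte factor HNF1, searched on both strands.
Afp: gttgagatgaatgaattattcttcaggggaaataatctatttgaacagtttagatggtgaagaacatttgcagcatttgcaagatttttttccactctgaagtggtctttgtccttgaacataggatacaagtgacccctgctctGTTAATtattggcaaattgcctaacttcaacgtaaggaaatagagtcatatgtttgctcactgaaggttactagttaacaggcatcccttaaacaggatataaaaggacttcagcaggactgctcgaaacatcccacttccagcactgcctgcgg
Alb: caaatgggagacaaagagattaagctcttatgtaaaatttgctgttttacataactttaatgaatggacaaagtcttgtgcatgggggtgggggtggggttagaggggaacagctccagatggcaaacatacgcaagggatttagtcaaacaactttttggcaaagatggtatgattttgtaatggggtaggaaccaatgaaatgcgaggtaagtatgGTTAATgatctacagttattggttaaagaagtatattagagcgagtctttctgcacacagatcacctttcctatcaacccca
Each window held this motif once on the plus strand, starting at base 146 in Afp and at base 219 in Alb. Of 32851 mouse windows of this length, 7.10% held it. The match is a description of the letters only. The table held windows for 6 of the 10 genes; those of H19, Cdkn1c, Cd24a and Ly6d were not used.

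Of 3 regulators known to act on Afp after birth, Zhx2 and Zbtb20 were tested and did not pass, and Zfhx3 was below the filter and not tested. Zhx2, the zinc finger and homeobox repressor behind strain differences in adult Afp and H19, was at 3.59 ± 0.882 FPKM in RIC_hEV and 3.99 ± 0.760 FPKM in ctr_hEV (SD, n = 4 each). Zbtb20, another repressor of Afp, was at 1.70 ± 0.373 and 1.74 ± 0.638 FPKM, and Zfhx3, which binds the Afp control region, at 0.430 ± 0.0716 and 0.612 ± 0.166 FPKM. Of the 20 genes listed as regulators of Afp and other fetal liver genes, 18 were tested (not Zfhx3 and Zfp57), and none passed. Above the median tested gene lay 10 and below it 8 (7 higher and 11 lower before the median was subtracted). An unadjusted p under 0.05 (limma) was found for 3 of the 18, against 14.0% of all tested genes. Among the most abundant, the hepatocyte factor Cebpb was at 143 ± 7.84 FPKM in RIC_hEV and 108 ± 17.0 FPKM in ctr_hEV, without overlap (as were 1.31% of tested genes, higher in RIC_hEV), Hnf4a at 130 ± 14.9 and 106 ± 8.68 FPKM, and Cebpa at 96.4 ± 12.6 and 107 ± 5.07 FPKM.

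Gpc3, glypican 3, is a cell-surface proteoglycan of fetal liver and of liver cancer, on the X chromosome (52272426 to 52613950, minus strand). It had 0.499, 0.443, 0.510 and 0.748 FPKM in RIC_hEV 1 to 4, against 0.537, 0.515, 0.288 and 0.620 FPKM in ctr_hEV 1 to 4. The groups overlapped throughout. The library with the highest H19 among the controls, ctr_hEV 3, had the lowest Gpc3 of all 8.

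Cd24a is a small, heavily glycosylated surface protein of progenitor cells of bile duct type, of young blood cells and of many tumours (chromosome 10, 43578284 to 43584265, plus strand). It had 1.43, 1.88, 2.53 and 1.43 FPKM in RIC_hEV 1 to 4, against 16.9, 3.13, 9.26 and 2.22 FPKM in ctr_hEV 1 to 4. As with H19, ctr_hEV 1 and ctr_hEV 3 stood out, and ctr_hEV 4 lay below RIC_hEV 3. Cd24a means were 1.82 ± 0.521 FPKM in RIC_hEV and 7.88 ± 6.77 FPKM in ctr_hEV (SD, n = 4 each). The relative log2 change was -1.23 (SE 0.45), and -0.36 with ctr_hEV 1 and ctr_hEV 3 left out. H19 and Cd24a were among the 0.204% of tested genes with a relative log2 change below -1. Both were chosen with this contrast known, and H19 was tested only through its ctr_hEV values, so nothing is read from that rank. Of the 31-base stretches of Cd24a, 4.98% occur in other annotated genes.

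Ly6d, a surface protein anchored by a lipid, marks early B cells and layered epithelia. It was the most abundant of the 10 genes (chromosome 15, 74762056 to 74763620, minus strand), at 74.8, 105, 163 and 112 FPKM in RIC_hEV 1 to 4, against 269, 206, 220.0 and 96.6 FPKM in ctr_hEV 1 to 4. The groups overlapped only through ctr_hEV 4, which lay below all RIC_hEV libraries but the first. Ly6d means were 113 ± 36.4 FPKM in RIC_hEV and 198 ± 72.8 FPKM in ctr_hEV (SD, n = 4 each), and the relative log2 change was -0.65 (SE 0.31), or -0.34 with ctr_hEV 1 and ctr_hEV 3 left out. From the B lineage and epithelium marker lists, 3 genes were picked after their values were seen. The B cell gene Cd79a was at 0.160 to 0.456 FPKM in RIC_hEV and 0.173 to 0.373 FPKM in ctr_hEV, and the basal keratins Krt5 and Krt14 were at most 0.0406 and 0 FPKM in RIC_hEV and 0.184 and 0 FPKM in ctr_hEV. Other genes of both lists were higher, among them Perp, Krt23, Jchain and Blnk, whose values are given with their lists; their part in the Ly6d difference was not tested.

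**Figure D2:**
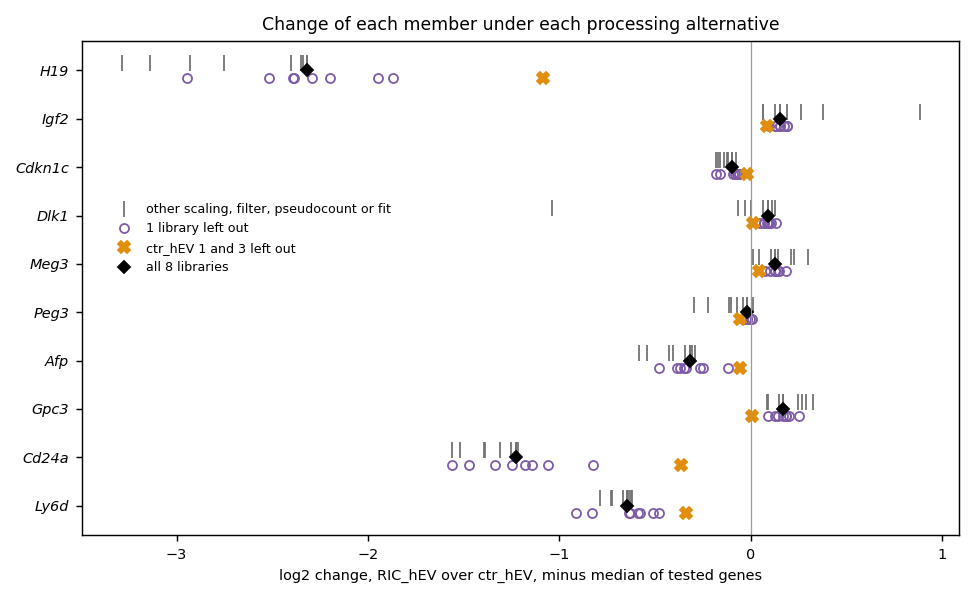
Relative log2 change of each gene, RIC_hEV over ctr_hEV, with all 8 libraries (black), with 1 library left out (open circles), with ctr_hEV 1 and 3 left out (orange crosses) and under other scalings, filters, pseudocounts or fits (grey ticks). H19, Cd24a and Ly6d move towards 0, to -1.09, -0.36 and -0.34, when both libraries are left out and stay below 0.

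In order of their mean over all 8 libraries, Ly6d (156 FPKM) stood far above H19 (6.65), Cd24a (4.85), Cdkn1c (2.03) and Afp (1.38), followed by Gpc3 (0.520), Peg3 (0.406), Meg3 (0.0912), Igf2 (0.0312) and Dlk1 (0.0113). In RIC_hEV alone H19 (0.731 ± 0.275 FPKM) lay among Afp (0.977 ± 0.339) and Gpc3 (0.550 ± 0.135), which do not differ from it beyond their spread. Ly6d was separate from its neighbour in both groups.

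Summed markers of several other cell types were highest in ctr_hEV 1 or ctr_hEV 3, but those of B lineage, endothelium and pancreas were not. The part of any of these cell types in the differences of the members was not tested. In a piece of tissue, fewer cells of a type and less RNA per cell cannot be told apart. The summed FPKM of 15 progenitor and bile duct markers was 46.2 to 70.1 in RIC_hEV and 64.6 to 202 in ctr_hEV. It was highest in ctr_hEV 1 (202) and ctr_hEV 3 (154), as for Cd24a and H19. A large part of the sum was Spp1 alone, at 129 FPKM in ctr_hEV 1, 97.7 FPKM in ctr_hEV 3 and 16.9 to 36.0 FPKM in RIC_hEV. All 8 tested members of the progenitor and bile duct list lay below the median tested gene in RIC_hEV and none passed. Their median relative log2 change was -0.48, where that of all tested genes is 0 by construction. An unadjusted p under 0.05 (limma) was found for 4 of the 8, against 14.0% of all tested genes. Krt19, among the 4, was tested only through its ctr_hEV values. The list was chosen with earlier results known, so nothing is read from this count. The bile duct adhesion protein Epcam, for example, was at 0.939 to 1.18 FPKM in RIC_hEV, against 9.10, 1.18, 4.96 and 0.886 FPKM in ctr_hEV 1 to 4. The keratin Krt19 was at 0.745 ± 0.197 FPKM in RIC_hEV and 2.13 ± 1.46 FPKM in ctr_hEV, the transcription factor Sox9 at 1.10 ± 0.143 and 1.77 ± 0.904 FPKM, and osteopontin (Spp1) at 23.6 ± 8.51 and 68.5 ± 53.4 FPKM. Tnfrsf12a, a receptor of injured and dividing cells, was at 14.2 ± 3.50 and 21.6 ± 5.20 FPKM and the adhesion receptor Cd44 at 7.87 ± 1.23 and 11.6 ± 3.67 FPKM.

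Markers of neutrophils and red cells, which also carry Cd24a, were likewise uneven among the controls. Summed neutrophil markers were 6.68 to 15.7 FPKM in RIC_hEV and 12.8 to 70.4 FPKM in ctr_hEV, highest in ctr_hEV 3, with S100a9 at 4.69 ± 2.66 and 18.3 ± 12.2 FPKM, S100a8 at 3.61 ± 0.803 and 11.8 ± 7.22 FPKM and Retnlg at 1.13 ± 0.647 and 2.94 ± 1.75 FPKM. The defining neutrophil gene Ly6g, named after its values were seen, was listed at 0 in RIC_hEV and in ctr_hEV 4. In ctr_hEV 1 to 3 it was low as well, at 0.0815, 0.0782 and 0.183 FPKM. Elane and Mpo of the same list, also low, had overlapping groups. Elane was at 0 to 0.132 FPKM in RIC_hEV and 0 to 0.193 FPKM in ctr_hEV, Mpo at 0 to 0.0249 and 0 to 0.146 FPKM. Summed erythroid markers were 153 to 165 FPKM in RIC_hEV and 84.4 to 607 FPKM in ctr_hEV, highest in ctr_hEV 1, and came mainly from the globins Hbb-bs, Hba-a1 and Hba-a2. Of 6 tested erythroid genes, 4 were lower and 2 higher in RIC_hEV. The 2 higher were Alas2 (10.3 ± 1.32 and 7.79 ± 0.623 FPKM) and Klf1 (1.21 ± 0.184 and 1.05 ± 0.0648 FPKM). Stellate and fibroblast markers summed to 82.8 to 103 FPKM in RIC_hEV and 76.9 to 241 FPKM in ctr_hEV, with Col3a1 at 19.5 ± 4.43 and 34.9 ± 27.1 FPKM, Col1a1 at 8.56 ± 2.36 and 14.6 ± 12.9 FPKM and Lum at 18.4 ± 4.20 and 27.4 ± 12.0 FPKM. No gene of these 3 lists passed over all genes. At an unadjusted p under 0.05 stood 4 of 4 tested neutrophil, 1 of 6 erythroid and 1 of 15 stellate genes (limma), against 14.0% of all tested genes. The 1 erythroid gene was Alas2, higher in RIC_hEV. The neutrophil gene Ngp (0.326 and 2.40 FPKM) and the stellate gene Ngfr (0.924 and 1.67 FPKM) were tested only through their ctr_hEV values. These lists were chosen with earlier results known, so nothing is read from the counts. Macrophage markers summed to 412 to 584 FPKM in RIC_hEV and 436 to 778 FPKM in ctr_hEV, highest in ctr_hEV 1 (778) and ctr_hEV 3 (677), with Cd5l at 228 ± 32.8 and 299 ± 82.1 FPKM, Gpnmb at 51.3 ± 13.6 and 74.9 ± 40.0 FPKM and Cd68 at 55.4 ± 8.24 and 69.9 ± 26.4 FPKM; 6 of 8 tested genes lay below the median tested gene, and none passed or had an unadjusted p under 0.05. Mature hepatocyte genes went the other way in ctr_hEV 1, with the lowest sum of all libraries, 31748 FPKM, against 39913 to 45833 FPKM in RIC_hEV and up to 47790 FPKM in ctr_hEV 4. Of 15 tested hepatocyte genes, 13 lay above the median tested gene (median relative log2 change 0.40) and none passed. An unadjusted p under 0.05 (limma) was found for 9 of the 15, against 14.0% of all tested genes. Nothing is read from this count either, since the list was chosen with earlier results known. The apolipoprotein Apoa1 was at 6134 ± 325 FPKM in RIC_hEV and 5211 ± 236 FPKM in ctr_hEV, without overlap (1.31% of tested genes), and the cytochrome Cyp2e1 at 3529 ± 295 and 2283 ± 1196 FPKM.

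**Figure D3:**
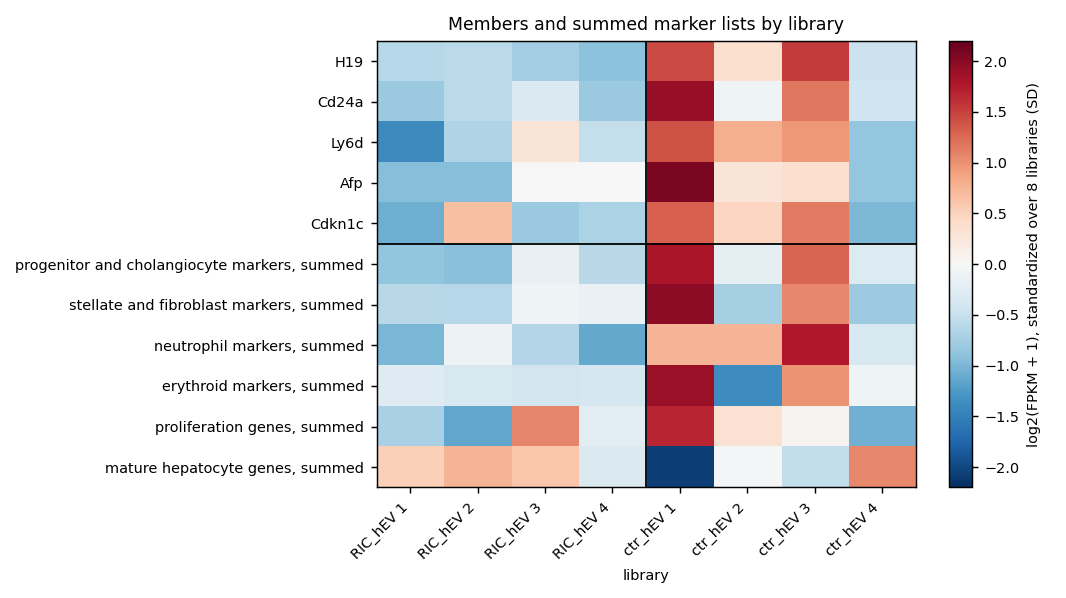
Standardized log2(FPKM + 1) over the 8 libraries (colour, in SD) of the 5 tested fetal and imprinted genes and, below the line, of 6 summed marker lists, with RIC_hEV left of ctr_hEV. ctr_hEV 1 has the highest value of Cd24a, Ly6d, Afp, Cdkn1c and 4 marker sums, ctr_hEV 3 that of H19 and the neutrophil sum, and ctr_hEV 4 lies below the mean for all 5 genes.

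For further cell types the values were as follows. Of 9 B lineage markers 2 were tested, Jchain at 3.03 ± 0.596 FPKM in RIC_hEV and 1.31 ± 0.394 FPKM in ctr_hEV and Blnk at 1.90 ± 0.288 and 2.29 ± 1.01 FPKM, and neither passed, while Cd79b was at 0.834 ± 0.220 and 0.885 ± 0.399 FPKM; the list's sum was 5.85 to 6.81 and 4.18 to 6.42 FPKM. Of 12 markers of layered and gallbladder epithelium, 4 were listed at 0 in all libraries and the sum, mostly Perp (59.3 ± 2.42 FPKM in RIC_hEV and 60.0 ± 6.78 FPKM in ctr_hEV), was 66.8 to 71.6 FPKM in RIC_hEV and 57.4 to 77.4 FPKM in ctr_hEV; Krt23 was at 8.09 ± 0.636 and 6.92 ± 1.85 FPKM and Sfn at 1.29 ± 0.477 and 1.78 ± 0.694 FPKM. Of 7 pancreas markers 4 were at 0 throughout, and the sum was 2.63 to 3.40 and 2.84 to 3.43 FPKM, nearly all of it Cela1 (2.88 ± 0.264 and 3.01 ± 0.204 FPKM), with Cela2a at 0.0107 to 0.152 and 0.0211 to 0.103 FPKM and Prss2 listed at 0 in all libraries but ctr_hEV 2. Endothelial markers summed to 85.3 to 119.6 and 89.2 to 108 FPKM, with the sinusoidal lectin Clec4g at 25.8 ± 1.77 and 21.7 ± 3.68 FPKM, Lyve1 at 19.6 ± 7.31 and 20.4 ± 6.52 FPKM and Oit3 at 16.5 ± 2.27 and 14.1 ± 1.73 FPKM. Proliferation genes summed to 35.8 to 60.1 and 36.6 to 69.1 FPKM, and none passed. Of 12 tested members 8 lay above the median tested gene (2 higher and 10 lower before the median was subtracted). An unadjusted p under 0.05 (limma) was found for 2 of the 12, against 14.0% of all tested genes. Ccnb1, among the 2, was tested only through its ctr_hEV values (0.768 and 1.38 FPKM). Pcna was at 21.1 ± 4.68 and 22.5 ± 3.41 FPKM, the mitotic cyclin Ccnb2 at 2.87 ± 0.560 and 5.82 ± 2.31 FPKM, and the replication gene Mcm5 at 4.23 ± 1.38 and 3.75 ± 1.33 FPKM.

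Around Igf2, other genes of the IGF system were measured at much higher levels than Igf2 itself. Of 20 listed genes 12 were tested, 9 above and 3 below the median tested gene (median relative log2 change 0.13), and none passed. Before the median was subtracted, 6 were higher and 6 lower. An unadjusted p under 0.05 (limma) was found for 2 of the 12, against 14.0% of all tested genes. The adult ligand Igf1 was at 36.7 ± 4.81 FPKM in RIC_hEV and 35.9 ± 8.65 FPKM in ctr_hEV. The binding protein Igfbp2 was at 863, 688, 694 and 803 FPKM in RIC_hEV 1 to 4, against 531, 583, 529 and 552 FPKM in ctr_hEV 1 to 4, and the groups did not overlap. Among tested genes, 1.31% were higher in RIC_hEV without overlap; the relative log2 change was 0.58 (SE 0.11, limma adjusted p = 0.332), so Igfbp2 did not pass. Igfbp1, a binding protein that insulin represses, was at 642 ± 206 and 406 ± 314 FPKM, and Igfbp4 at 246 ± 25.5 and 205 ± 20.5 FPKM. Igf2r, the imprinted receptor that clears IGF2, was at 8.39 ± 1.33 and 11.3 ± 3.17 FPKM, and the signalling receptor Igf1r at 0.392 ± 0.0965 and 0.567 ± 0.200 FPKM.

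Imprinted genes outside the set lay on both sides of the median tested gene. Of 46 listed genes 20 were tested, 10 above and 10 below it (median relative log2 change -0.01), and none passed. Before the median was subtracted, 5 were higher and 15 lower. An unadjusted p under 0.05 (limma) was found for 2 of the 20, against 14.0% of all tested genes. The most abundant were the matrix proteoglycan Dcn (64.4 ± 9.62 FPKM in RIC_hEV and 73.5 ± 9.35 FPKM in ctr_hEV), the tetraspanin Cd81 (64.7 ± 2.95 and 68.8 ± 3.21) and Slc22a18, a transporter near Cdkn1c (38.2 ± 3.53 and 34.4 ± 2.66). Growth genes of the class were lower in level. Grb10, an adaptor that dampens insulin and IGF signals, was at 1.05 ± 0.225 and 1.56 ± 0.575 FPKM, Mest at 0.686 ± 0.119 and 1.06 ± 0.349 FPKM, Plagl1 at 0.237 ± 0.0832 and 0.465 ± 0.167 FPKM and Peg10 at 0.157 ± 0.0279 and 0.393 ± 0.274 FPKM, all with overlapping groups; Phlda2 was at 0 to 0.144 FPKM in RIC_hEV and 0 to 0.217 FPKM in ctr_hEV, and Zdbf2 was listed at or near 0. Kcnq1ot1, the antisense RNA that silences the cluster of Cdkn1c in cis, was at most at 0.0392 FPKM in RIC_hEV and 0.0339 FPKM in ctr_hEV.

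Among other oncofetal genes, Lin28b, an RNA-binding protein of the fetal state, was listed at 0 in all libraries, and its relatives in that program, the IGF2 mRNA-binding proteins Igf2bp1 and Igf2bp3, were at or below 0.0154 and 0.104 FPKM. Of 22 listed genes 11 were tested, 3 above and 8 below the median tested gene (median relative log2 change -0.31), and none passed. Before the median was subtracted, 2 were higher and 9 lower. An unadjusted p under 0.05 (limma) was found for 3 of the 11 (Scd2, Sox4 and Tspan8), against 14.0% of all tested genes. Tspan8 was tested only through its ctr_hEV values. The list was chosen with earlier results known, so nothing is read from this count. The glycolytic enzyme gene Aldoa was at 54.3 ± 3.85 FPKM in RIC_hEV and 59.0 ± 14.6 FPKM in ctr_hEV, Pkm at 17.8 ± 2.24 and 23.8 ± 8.27 FPKM, and the chromatin protein Hmga1 at 9.89 ± 0.983 and 8.06 ± 2.58 FPKM. Scd2 was at 3.57 ± 0.965 and 6.09 ± 2.45 FPKM and Sox4 at 1.24 ± 0.249 and 3.44 ± 2.74 FPKM. Tspan8 was at 0.543 to 0.992 FPKM in RIC_hEV, against 8.28, 1.22, 5.96 and 0.662 FPKM in ctr_hEV 1 to 4.

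**Figure D4:**
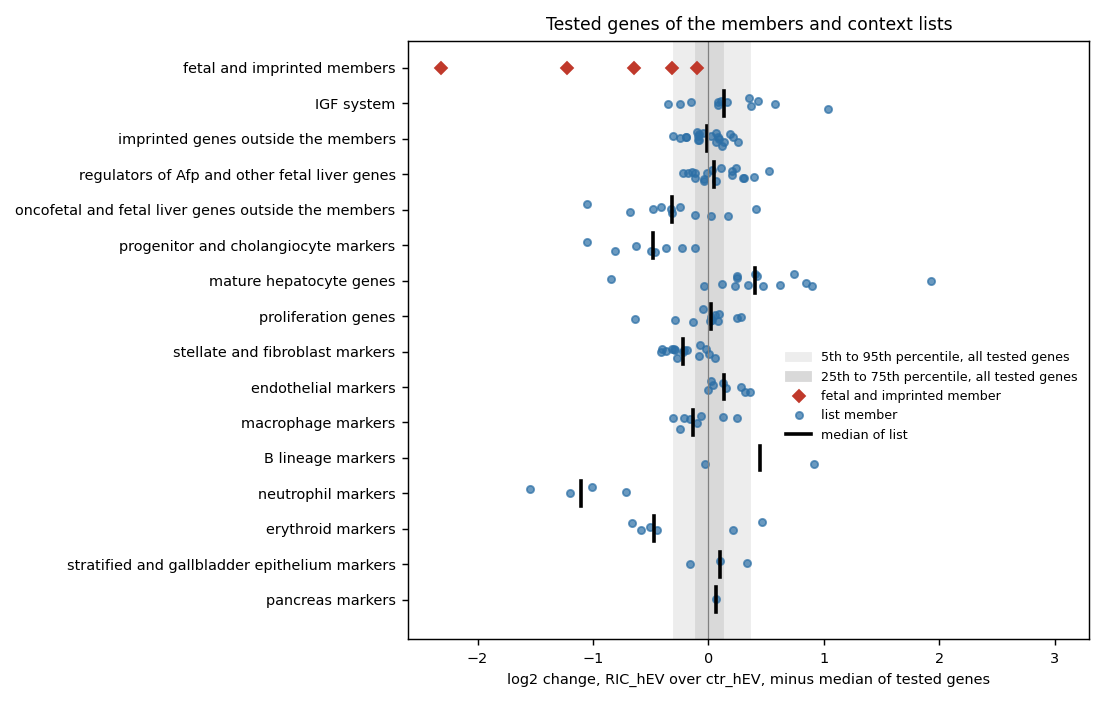
Relative log2 change, RIC_hEV over ctr_hEV, of the 5 tested fetal and imprinted genes (red) and of the tested genes of each context list (blue, with the median as a bar), over the range of all tested genes (grey bands). H19, Cd24a, Ly6d and Afp lie below the 5th percentile of tested genes (-0.30) and Cdkn1c (-0.10) inside the bands, while imprinted genes outside the set have their median at -0.01. The red genes were chosen with this contrast known, so their place is a description only.

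Genes nearest in profile over the 8 libraries were found by Euclidean distance between standardized log2(FPKM + 1) values, where 0 means the same shape. Nearest to H19 were the seryl-tRNA synthetase gene Sars (distance 0.305) and Egln3 (0.371), an oxygen-dependent hydroxylase. Sars was at 11.2 to 12.8 FPKM in RIC_hEV, against 20.7, 16.3, 20.4 and 13.3 FPKM in ctr_hEV 1 to 4. Nearest to Cd24a were Plp2 (0.310) and Pafah1b3 (0.370), to Ly6d the dynactin gene Dctn4 (0.383) and Aida (0.431), to Afp the nuclear transport gene Ran (0.438) and the maintenance DNA methyltransferase gene Dnmt1 (0.470), and to Cdkn1c the corepressor gene Tle4 (0.348) and Txnrd3 (0.350). Dnmt1 was at 1.75 to 2.49 FPKM in RIC_hEV, against 4.40, 2.57, 2.96 and 2.05 FPKM in ctr_hEV 1 to 4. Among the members themselves, H19 and Cd24a were nearest to each other (0.902) and Cdkn1c and Afp farthest apart (2.23). All these profiles share the high ctr_hEV 1 and the same 8 libraries, so closeness describes these libraries only.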

How the data were processed

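RNA of 8 liver pieces was measured, 4 of group RIC_hEV and 4 of group ctr_hEV, read from the sample titles. Total RNA was extracted with Trizol, per the labels' protocols. HISAT2 2.2.1, HTSeq 0.13.5, DESeq2 1.18.1 and the build mm10 appear, with no role or order, in the submitters' processing notes. The deposited values are FPKM, made by the authors, in 1 column per library. For annotation, gene lengths, strand setting and the program behind FPKM, nothing is stated.

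Of 55335 rows, 3225 carried no gene name and were left out; they took 0.176% to 0.207% of the FPKM of a library. Where a symbol stood on more than 1 row (80 symbols), the row with the highest mean kept it and the others stayed in the fit unnamed. Values were transformed to log2(FPKM + 1), and genes averaging 1 FPKM or more over all 8 libraries (11274) were fitted with limma 3.58.1 in R 4.3.3 (moderated linear model with a mean-variance trend, two-sided, Benjamini-Hochberg adjustment over all tested genes, threshold 0.05). This scale understates changes of genes with low FPKM. The fit was tested on simulated data. The median log2 change of tested genes was -0.11; relative changes have it subtracted, while SE and p belong to the change as fitted. The members and 15 context lists were chosen with earlier results of these data known. Nothing is therefore read from counts of list genes beside the share of all tested genes. From each list the text names the 3 members with the highest mean and some partners set in the same rule. For each tested member it names the 2 nearest profiles. Cd79a, Krt5, Krt14 and Ly6g, defining markers of their lists, and also Elane and Mpo, were named after their values were seen. So were Ngp, Ngfr, Ccnb1, Alas2, Klf1, Scd2, Sox4 and Tspan8. No set test was run.

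Read counts were not used. The most common FPKM times exon length (GENCODE M21) among low genes with 1 transcript, read as the worth of 1 fragment, gives a depth of 19300000 to 28800000 fragments per library. Only 14.0% to 15.9% of low values lay within 0.02 of a whole multiple of it, so the fragment numbers given are estimates and no count model was used. Same-numbered libraries of both groups correlated at 0.05, 0.12, -0.01 and -0.23 in their deviations from the group means. The labels state no pairing, and these few correlations cannot exclude one, so the main fit used none. The labels name no separate animals, so p-values measure the spread between these libraries, which may be technical. Alternatives changed the pseudocount, filter, scaling, trend, library weights, replicate block and the libraries used.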

Additional observations from a re-analysis of the deposited data

Results flagged for a closer look

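In 4 cases 1 library stood apart from the other 3 of its group, with a gap to the nearest that exceeds the 95% critical value of Dixon's ratio. For normally distributed values chance flags about 1 in 20 such groups, and 20 were looked at. That rate does not hold for values near 0, as of Igf2 and Dlk1. A group with 1 value above 0 is always flagged, as for Dlk1. The number of flags is therefore not read as an excess. Igf2 was at 0.166 FPKM in RIC_hEV 2, where the next highest RIC_hEV library had 0.0108 FPKM, and at 0.0566 FPKM in ctr_hEV 1, where the next had 0.00607 FPKM. Dlk1 was at 0.0134 FPKM in RIC_hEV 1 and listed at 0 in the other RIC_hEV libraries. Peg3 was at 0.592 FPKM in ctr_hEV 1, where the next highest ctr_hEV library had 0.437 FPKM. The flagged values of Igf2 rest on an estimated 19.1 fragments in RIC_hEV 2 and 8.95 in ctr_hEV 1, and that of Dlk1 on 1.94.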

How the results depend on the processing

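Of 19 alternatives, 18 left no member past the threshold. Without ctr_hEV 4, H19 was the 1 member among 175 of 11322 tested genes that passed. Nothing is read from this, since the contrast chose the members. The relative log2 changes of H19, Cdkn1c, Afp, Cd24a and Ly6d were below 0 under all 19, from -3.29 to -1.09 for H19, -1.56 to -0.36 for Cd24a, -0.91 to -0.34 for Ly6d, -0.59 to -0.06 for Afp and -0.18 to -0.02 for Cdkn1c. The value nearest to 0 came from leaving out ctr_hEV 1 and ctr_hEV 3 together in all 5. All alternatives reuse the same libraries, and the contrast chose the members, so the shared sign is a description only. The relative change of Peg3 had the other sign under 2 alternatives and that of Dlk1 under 3. Before the median was subtracted, the change of each was below 0 under 18 of 19 alternatives. For these low genes the sign of the relative change therefore has no firm base. Of all tested genes, 4 passed, with 2 without a filter on low values (genes with FPKM above 0 in any library), 15 with estimated library weights, and 1 to 175 with 1 library left out (175 without ctr_hEV 4); the cause was not tested. With the replicate block 3 passed and no member did; it changed no other call. Context list genes passing numbered 0, and 0 to 9 with 1 library left out. Depth limits Igf2 and Dlk1, at few fragments per library.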
